A study of Mus musculus with 28 samples.

Results

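Kidney RNA from mice gavaged with nicotinamide mononucleotide (NMN) or water on the 2680 mg/kg/d schedule was compared over all expressed genes. The 6 libraries were chosen by their labels, 3 from NMN-gavaged and 3 from water-gavaged mice, out of 28 libraries in the series. All animals were male mice aged 8 weeks, labelled C57BL/6 and named C57BL6J in the study's methods, with no transgene, and gavage went on for 7 days before the organs were taken. The other libraries came from kidneys of the 1340 mg/kg/d schedule, with 1 gavage a day in place of 2, and from livers. Each schedule had water-gavaged mice of its own, 4 water and 4 NMN mice on the 1340 mg/kg/d schedule and 3 and 3 on the other. The labels number the replicates but do not say which kidney and liver came from the same mouse. They also do not state that libraries are separate animals in so many words, though the study's legend names 3 biological replicates for this comparison. All p-values rest on the spread between the libraries of the comparison they belong to.

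NMN is a precursor from which cells make NAD, the cofactor that carries electrons in energy metabolism and is consumed by sirtuins and PARP enzymes. The kidney makes NAD from nicotinamide by salvage and from tryptophan by a longer route, in which the proximal tubule is known to be active. The proximal tubule reabsorbs glucose, phosphate, amino acids and filtered protein, and its cells are rich in mitochondria and peroxisomes. Later segments of the nephron adjust sodium, potassium, acid and water.

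Counted reads ran from 16358886 to 18983689 in the water libraries and from 22922994 to 33872983 in the NMN libraries. Every NMN library was thus deeper than every water library (two-sided exact permutation p = 0.1, which is as small as 3 against 3 can give). More genes had at least 1 count with NMN, 22421 ± 580 against 20768 ± 808 (SD, n = 3). After thinning to the smallest total the counts of detected genes ran from 21045 to 21420 with NMN and from 19895 to 21160 with water, and the groups overlapped. Transcripts of the mitochondrial genome took 20.3% ± 0.346 of the counts with NMN and 20.6% ± 0.907 with water (SD, n = 3), which did not differ beyond the spread. Reads that met no gene took a smaller share with NMN, 8.07% ± 0.148 against 8.81% ± 0.348 (SD, n = 3), and these groups did not overlap. No pair of libraries agreed within sampling noise.

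Markers of the kidney were abundant in every library. Slc34a1, the main phosphate transporter of the proximal tubule, lay between 3052 and 5095 CPM (counts scaled to the size and composition of the library). Umod, which encodes uromodulin of the thick limb, lay between 1278 and 1875 CPM. In bulk tissue, fewer cells of a type and less RNA per cell cannot be told apart.

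Some libraries stood apart before any comparison. Arntl, a clock gene, was at 28.2 CPM in water replicate 1 and 19.7 CPM in NMN replicate 1, against 3.37 to 6.01 CPM in the other 4 libraries. Dbp, a clock output gene of opposite phase, was at 8.24 and 31.3 CPM in those 2 libraries and between 100.2 and 124 CPM elsewhere. Both groups therefore held 1 library of a different clock state, and the labels give no time of collection. Water replicate 2 lay far from the rest on the first principal component (23.2, against -8.86 to 2.02 in the other libraries), which carried 35.9% of the variance of the 500 most variable genes.

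**Figure D1:**
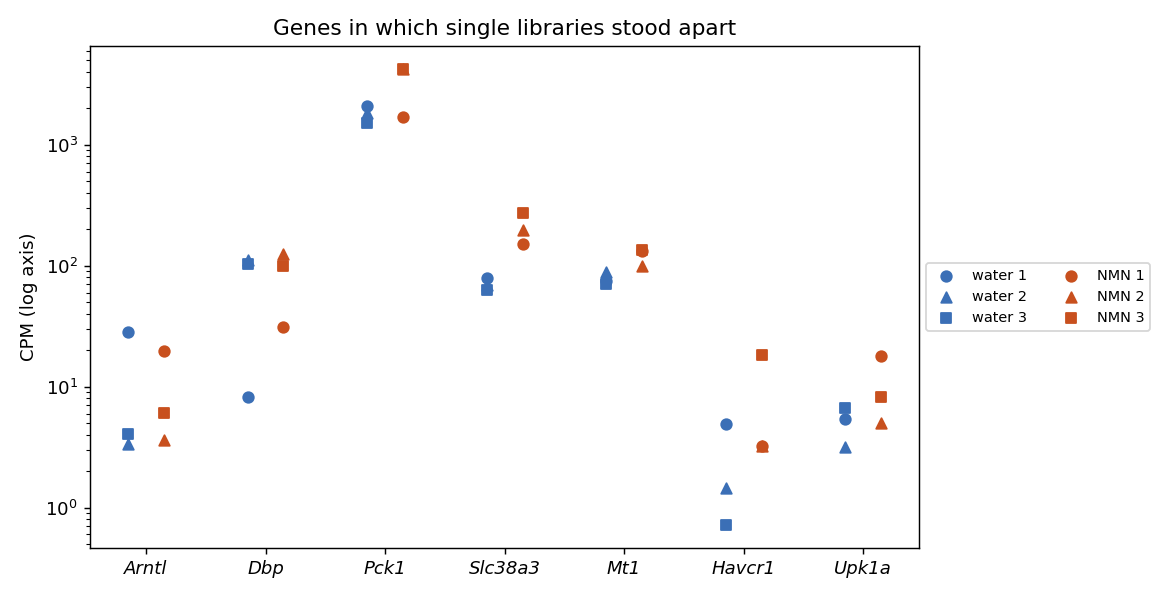
CPM on a log axis for 7 genes in the 3 water libraries (blue) and the 3 NMN libraries (orange), with 1 symbol shape per replicate number. Arntl and Dbp set replicate 1 of both groups apart from the other libraries, Pck1 was high in NMN replicates 2 and 3 only, and Havcr1 was highest in NMN replicate 3.

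In all, 61 of 15245 tested genes changed at an adjusted p under 0.05 (0.4%; edgeR's quasi-likelihood test, Benjamini-Hochberg adjustment over all tested genes). Of these, 18 were higher with NMN (0.118%) and 43 were lower (0.282%). Most shifts were moderate, with a median fold of 1.71 among the genes that rose and 1.67 among those that fell. More than a 2-fold change was reached by 6 of the genes that rose and 8 of those that fell. Over all tested genes the median log2 fold change was 0.0038, and the groups did not overlap in 17.2% of them (8.47% higher and 8.69% lower with NMN). An unadjusted p under 0.05 was met by 1688 genes (11.1%), 5.23% higher and 5.84% lower. The biological coefficient of variation between libraries was 11.98%.

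The number of genes called depended strongly on single libraries. It was 17, 20 and 3 without water replicates 1, 2 and 3, and 191, 62 and 16 without NMN replicates 1, 2 and 3. All 61 genes were still called without NMN replicate 1. Of the 61, 15 were kept without water replicate 1, 14 without water replicate 2, 34 without NMN replicate 2 and 9 without NMN replicate 3. Without water replicate 3 only 2 of them were, Hao2 and Folh1, so every other call named here was lost without that library. DESeq2 called 236 genes, 98 higher (0.635%) and 138 lower (0.894%), which made 1.53% of 15438 tested, and these included all 61. Without replicate 1 of both groups 196 genes were called, among them 53 of the 61, and with a clock score as a covariate 103 were called, among them all 61. These last 2 settings were chosen after seeing the data.

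**Figure D2:**
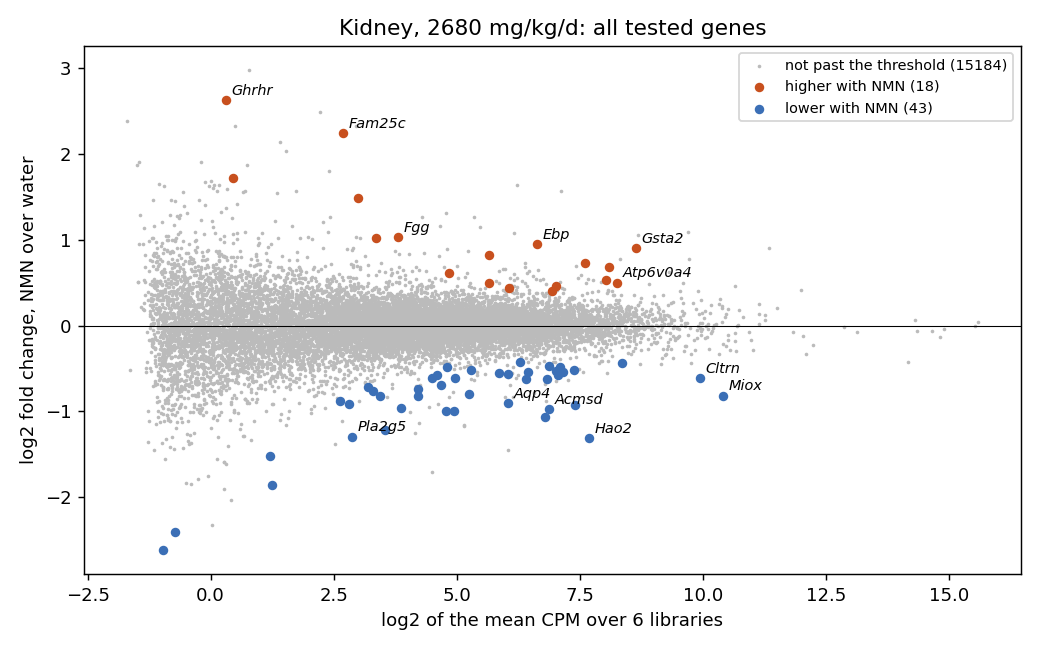
Log2 fold change of NMN over water (vertical axis) against the log2 of the mean CPM over the 6 libraries (horizontal axis) for 15245 tested genes. Grey points did not pass the threshold, orange points mark the 18 genes that rose and blue points the 43 that fell.

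Of the genes that fell, Hao2 had the smallest p. Hao2, a peroxisomal oxidase of 2-hydroxy acids, was measured at 276, 302 and 304 CPM with water and at 132, 107 and 117 CPM with NMN. The groups lay far apart, and Hao2 dropped by 1.31 in log2 units, with a standard error (SE) of 0.09 and an adjusted p of 9.34e-05 by edgeR. Folh1, a membrane carboxypeptidase that removes glutamate from peptides and folates, was at 161, 153 and 138 CPM with water and at 71.6, 65.8 and 79.3 CPM with NMN. It fell by 1.06 (SE 0.09, adjusted p = 0.000527, edgeR). Among the 61 genes, only Hao2 and Folh1 passed the threshold in each of the 6 fits with 1 library left out.

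Miox opens the breakdown of inositol and is a marker of the proximal tubule. Its level was 1787, 1662 and 1775 CPM with water and 874, 1091 and 1005 CPM with NMN. Miox fell by 0.82 on the log2 scale (SE 0.10, adjusted p = 0.0121, edgeR), and only without water replicate 3 did it miss the threshold (adjusted p = 0.12). Acmsd, the decarboxylase that turns tryptophan breakdown away from NAD, was at 167, 153 and 149.9 CPM with water and at 101, 67.4 and 70.6 CPM with NMN. It fell by 0.98 (SE 0.15, adjusted p = 0.0377, edgeR). NMN replicate 1 was the highest of its group, and the adjusted p of Acmsd was 1.4e-05 without it. The call was lost without water replicate 1, 2 or 3 or NMN replicate 3, with an adjusted p of 0.14, 0.12, 0.18 and 0.12 (edgeR). A non-coding gene overlaps Acmsd, and counting ignored strand, so reads of the 2 cannot be told apart.

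Prodh2, which oxidizes hydroxyproline on the way to glyoxylate, was at 78.0, 82.5 and 76.4 CPM with water and 45.6, 53.7 and 61.1 CPM with NMN (log2 fold change -0.56, standard error 0.10, adjusted p = 0.0403, edgeR). Slc34a3, a sodium-phosphate cotransporter of the brush border, was at 44.7, 47.1 and 52.7 CPM with water and 25.6, 33.9 and 24.2 CPM with NMN (log2 fold change -0.79, standard error 0.13, adjusted p = 0.0282, edgeR). Every NMN library lay below every water library for both genes. Cltrn and Dpep1, singled out after their values were seen, also fell. Cltrn encodes collectrin, a partner of amino acid transporters, and went from 1189.5 ± 55.2 to 777 ± 93.0 CPM (SD, n = 3). Dpep1, a dipeptidase of the brush border, went from 152 ± 16.8 to 105 ± 8.97 CPM (SD, n = 3). With 1 library left out, Prodh2 passed in 2 of 6 fits (without NMN replicate 1 or 3) and Slc34a3 in 2 of 6 (without NMN replicate 1 or 2). Cltrn passed in 2 of 6 and Dpep1 in 3 of 6, with a highest adjusted p of 0.198 and 0.23 (edgeR).

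Aqp4, a water channel, was at 83.0, 96.4 and 80.2 CPM with water and at 39.5, 44.3 and 54.4 CPM with NMN, a log2 fold change of -0.91 (SE 0.12, adjusted p = 0.0122, edgeR). Without water replicate 1 or 3 its adjusted p was 0.059 and 0.11 (edgeR). Azgp1, which encodes zinc-alpha-2-glycoprotein, was between 102 and 105 CPM in the water libraries and between 68.6 and 74.1 CPM in the NMN libraries. The spread within each group was small beside that gap, and Azgp1 fell by 0.54 on the log2 scale (SE 0.07). Habp2, a serine protease whose gene overlaps Nrap, fell by 0.57 (SE 0.08). Defb29, a beta-defensin, fell by 0.99 (SE 0.13). The other genes of the 12 with the smallest p were Evc, a component of the primary cilium (-0.51), Vill, a villin-like protein (-0.62), Pla2g5, a secreted phospholipase (-1.29), Fam151a (-0.99, overlapping Acot11) and Pbld2 (-0.74). Single libraries decided these calls too. Azgp1 passed in 4 of the 6 fits with 1 library left out, not without water replicate 2 or 3, and Defb29 in 4, not without water replicate 3 or NMN replicate 3. Habp2, Pla2g5 and Fam151a were lost without water replicate 2 or 3 or NMN replicate 3, and Vill without water replicate 1 or 3 or NMN replicate 3. Evc and Pbld2 were lost without any 1 water library or NMN replicate 3. The highest adjusted p of these 8 genes came without water replicate 3 and ran from 0.080 for Defb29 to 0.15 for Vill (edgeR).

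Among the genes that rose, Fgg, the gamma chain of fibrinogen, was at 8.56, 9.33 and 9.79 CPM with water and at 20.5, 16.8 and 19.0 CPM with NMN. The groups lay well apart (log2 fold change 1.03, standard error 0.12, adjusted p = 0.00999, edgeR), and the call was lost without water replicate 3 (adjusted p = 0.065). Fga, the alpha chain, had a log2 fold change of 0.70 (SE 0.19, adjusted p = 0.23, edgeR, 0.0098 from DESeq2). Gsta2, a glutathione S-transferase with close paralogs that could share its reads, was at 312, 249 and 275 CPM with water and at 478, 471 and 608 CPM with NMN. The call on Gsta2 was lost without water replicate 2 or 3 (adjusted p = 0.051 and 0.14 from edgeR).

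Fam25c had the largest log2 fold change among the called genes with over 1 CPM in both groups. It was at 2.73, 2.11 and 1.92 CPM with water and at 7.82, 9.29 and 14.9 CPM with NMN, a log2 fold change of 2.24 (SE 0.26, adjusted p = 0.0121, edgeR). The call was lost without water replicate 2 or 3 (adjusted p = 0.069 and 0.12). Ghrhr, the receptor of growth hormone-releasing hormone, was at 0.345 ± 0.0264 CPM with water and 2.15 ± 0.558 CPM with NMN (SD, n = 3), so few reads stood behind the water value. The remaining genes of the 12 with the smallest p were Cdo1, Cyp2d9, Pdxk, Ces2c, Tspo, Rgcc, Asb11 and Tmco4. Cdo1, which opens the breakdown of cysteine, rose from 215 ± 6.50 to 309.6 ± 23.1 CPM (SD, n = 3), and Cyp2d9, a cytochrome P450 with close paralogs, from 148 ± 7.35 to 245 ± 31.9 CPM (SD, n = 3). Pdxk, the kinase of vitamin B6, rose by 0.82 on the log2 scale (SE 0.13), and Ces2c, a carboxylesterase, by 0.68 (SE 0.11). Tspo, a transporter-like protein of the outer mitochondrial membrane, rose by 0.50 (SE 0.08, overlapping Mcat). Rgcc, a regulator of the cell cycle, rose by 1.02 (SE 0.17), Asb11 by 1.49 (SE 0.23) and Tmco4 by 0.61 (SE 0.10). With 1 library left out, Cyp2d9 was lost without water replicate 2 or 3 or NMN replicate 3, and Ghrhr without water replicate 1 or 3 or NMN replicate 3. Cdo1, Ces2c, Asb11 and Tmco4 were lost without any 1 water library or NMN replicate 3, and Pdxk without water replicate 1 or 3 or NMN replicate 2 or 3. Tspo and Rgcc passed without NMN replicate 1 and in none of the other 5 fits. The highest adjusted p of these 9 genes came without water replicate 3 and ran from 0.12 for Asb11 to 0.198 for Pdxk (edgeR).

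**Figure D3:**
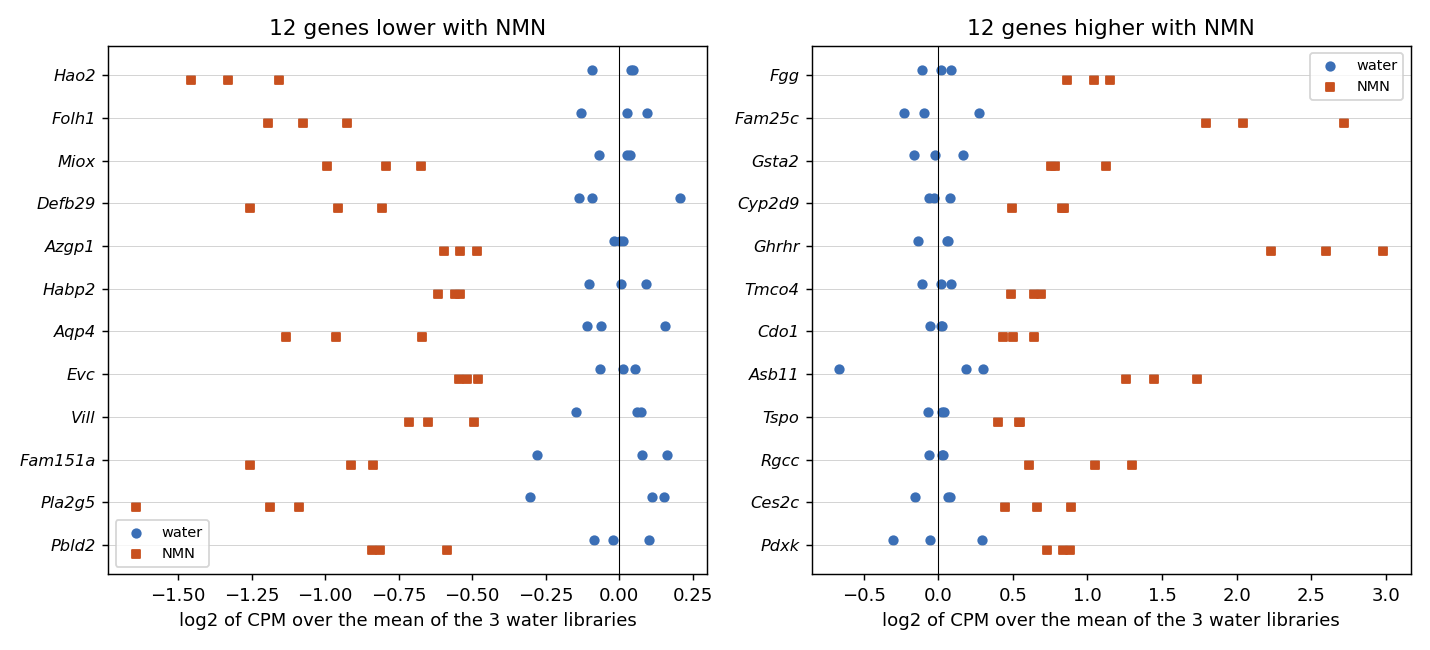
Log2 of the CPM of each library over the mean of the 3 water libraries, for the 12 genes with the smallest p in each direction. Circles are water libraries and squares NMN libraries, and in all 24 genes the 3 squares lie on 1 side of the 3 circles, which was part of the rule that chose them.

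The 250 bases before the start of each gene were searched on both strands for 5 short motifs, since genes that moved together were at hand. RefSeq promoters of the GRCm38.p6 build matched 33 of the 43 lower genes, 12 of the 18 higher genes and 11356 of 15241 tested symbols. Hepatocyte nuclear factor 1 (HNF1) is a transcription factor of the proximal tubule, whose half-site reads GTTAAT. This half-site was found before 9 of 33 lower genes (27.3%), 1 of 12 higher genes (8.33%) and 5.61% of the 11356 tested genes with a promoter. Each share of all genes given for a motif is out of these 11356. The longer form, in which the letters NATT follow the half-site, was found before 4 of 33 lower genes (12.1%), 1 of 12 higher genes (8.33%) and 0.361% of all. The motifs were settled on after a first look at more of them, so these shares are a description, and a match does not show that a factor binds. The 5 stretches that hold the longer motif are shown with the match in capitals, 5′ to 3′ on the strand of the gene, and Prodh2 holds it on the opposite strand.
Cltrn, chrX:164090108-164090167 (+): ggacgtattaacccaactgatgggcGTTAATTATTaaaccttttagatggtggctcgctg
Habp2, chr19:56287821-56287880 (+): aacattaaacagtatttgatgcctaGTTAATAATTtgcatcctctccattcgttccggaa
Prodh2, chr7:30493505-30493564 (+): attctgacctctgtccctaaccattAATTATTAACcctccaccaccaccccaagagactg
Tmed6, chr8:107065662-107065721 (-): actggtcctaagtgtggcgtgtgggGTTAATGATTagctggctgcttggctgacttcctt
Atp6v0a4, chr6:38124614-38124673 (-): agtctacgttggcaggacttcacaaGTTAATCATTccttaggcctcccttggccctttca

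Tmed6 and Atp6v0a4 come in through the motif. Tmed6 was at 13.9 ± 1.40 CPM with water and 7.85 ± 0.422 CPM with NMN (SD, n = 3). Atp6v0a4 encodes a subunit of the proton pump of acid-secreting cells and went the other way, from 253 ± 8.97 to 358 ± 39.5 CPM (SD, n = 3), with 2 genes overlapping it. Tmed6 passed in 2 of the 6 fits with 1 library left out and Atp6v0a4 in 1. Hao2, the gene with the smallest p, holds the half-site once in the last 100 bases before its start, shown likewise.
Hao2, chr3:98893231-98893330 (-): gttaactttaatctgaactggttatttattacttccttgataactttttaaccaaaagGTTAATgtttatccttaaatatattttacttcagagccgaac

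The other 3 motifs were the core of the antioxidant response element (TGACNNNGC), the E-box of clock factors (CACGTG) and the TATA box (TATAAA). The antioxidant core was found before 0 of 12 higher and 4 of 33 lower genes, against 14% of all. The E-box was found before 1 and 5, against 9.66% of all. The TATA box stood before 4 of 12 higher genes (33.3%, Cyp2d9, Fam25c, Gsta2 and Ly6f) and 1 of 33 lower genes, against 8.37% of all.

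Gene lists were described by how many members passed the threshold and by their median log2 fold change, beside the median of 0.0038 and the 50.8% of genes above 0 over all tested genes. The shares of all tested genes at an unadjusted p under 0.05, 11.1% in all, 5.23% higher and 5.84% lower, stand beside the counts of members at that level. In most lists no member passed. NAD salvage and NMN use had 14 tested members, of which 0 passed in edgeR or DESeq2 and 3 had an unadjusted p under 0.05, all higher, with a median of 0.05. Nampt, which makes NMN from nicotinamide, was at 175 ± 27.3 CPM with water and 185 ± 18.7 CPM with NMN (SD, n = 3), and Nmrk1, a nicotinamide riboside kinase, had a log2 fold change of 0.02 (SE 0.15). Of 7 tested genes of the route from tryptophan to NAD, only Acmsd passed in edgeR, 2 were lower in DESeq2, and 3 were higher and 2 lower at an unadjusted p under 0.05. Qprt, which makes the mononucleotide of this route from quinolinate, was lower in every NMN library (log2 fold change -0.36, standard error 0.08, adjusted p = 0.11, edgeR, 0.0407 from DESeq2). Kynu and Ido2 had log2 fold changes of 0.57 and 0.48 and did not pass. Of 17 NAD-consuming enzymes 0 passed in edgeR or DESeq2, and 2 had an unadjusted p under 0.05, both higher, near the 11.1% of all tested genes.

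Glutathione enzymes and targets of the oxidative stress factor NRF2 had 31 tested members, of which 26 lay above 0, with a median of 0.18. In edgeR 1 passed (Gsta2), DESeq2 called 6, all higher, and 12 were higher and 3 lower at an unadjusted p under 0.05. Groups did not overlap in 15 of the 31, against 17.2% of all tested genes. The summed CPM of the list was 9269 ± 376 with NMN and 7679 ± 299 with water (SD, n = 3). Gpx1, glutathione peroxidase, was between 1290.5 and 1445 CPM in the water libraries and between 1830.5 and 1907 CPM in the NMN libraries, with an adjusted p of 0.0544 from edgeR and of 5.8e-06 from DESeq2. Hmox1, heme oxygenase, went the other way at -0.44. Fatty acid oxidation had 26 of 32 members above 0 with a median of 0.16, and nuclear-encoded oxidative phosphorylation 28 of 32 with a median of 0.12, and 0 members passed in either list in edgeR. DESeq2 called 3 and 0 of them, and 9 and 8 had an unadjusted p under 0.05, all higher. The 8 tested transcripts of the mitochondrial genome had a median of -0.07, and 0 passed in edgeR or DESeq2 or at an unadjusted p under 0.05.

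Peroxisomal oxidases and enzymes of glyoxylate had 13 tested members. Hao2 and Prodh2 passed in edgeR, DESeq2 called 4, all lower, and 6 members were lower and 2 higher at an unadjusted p under 0.05. Agxt2, a mitochondrial aminotransferase of glyoxylate, was at 130.2, 151 and 158 CPM with water and at 61.6, 93.7 and 83.4 CPM with NMN, and had an adjusted p of 0.0514 from edgeR (6e-07 from DESeq2). The median of the list was 0.01, with 7 members above and 6 below 0.

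Transport of glucose, phosphate and amino acids in the proximal tubule had 14 of 21 members below 0, with a median of -0.06. Slc34a3 alone passed in edgeR, DESeq2 called 3, all lower, and 5 were lower and 0 higher at an unadjusted p under 0.05. Their summed CPM was 9435.5 ± 897 with NMN and 10833 ± 484 with water (SD, n = 3), and the groups did not overlap. Slc5a2, the main glucose transporter of this segment, was at 238, 195 and 242 CPM with water and 117, 191 and 158 CPM with NMN (log2 fold change -0.54, standard error 0.18, adjusted p = 0.32, edgeR, 0.037 from DESeq2). Genes with higher expression in kidneys of males, a list of 16, had 12 members below 0 and a median of -0.23, with 0 past the threshold in edgeR, 2 lower in DESeq2 and 5 lower at an unadjusted p under 0.05. Kap, an androgen-regulated protein of the proximal tubule, was at 21818, 20028 and 21641 CPM with water and 14458, 18309 and 14427 CPM with NMN (adjusted p = 0.19, edgeR, 0.0087 from DESeq2).

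Acid handling had 15 tested members, 10 above and 5 below 0, with a median of 0.14. Of these 0 passed in edgeR, DESeq2 called 2 higher and 1 lower, and 3 were higher and 1 lower at an unadjusted p under 0.05. The members named next are those with the smallest p, and Pck1. Slc38a3, the glutamine transporter that feeds ammonia production, was at 79.0, 69.0 and 62.5 CPM with water and at 151, 198 and 274 CPM with NMN. The groups were far apart but NMN libraries differed among themselves, and Slc38a3 had a log2 fold change of 1.57 (SE 0.23, adjusted p = 0.067, edgeR, 5.4e-16 from DESeq2). Glud1, glutamate dehydrogenase, showed a log2 fold change of 0.62 (SE 0.13, adjusted p = 0.074, edgeR, 0.00052 from DESeq2). Pck1, the enzyme of gluconeogenesis that is also known to rise in acid load, was at 2096, 1828 and 1511 CPM with water and 1707, 4249 and 4204 CPM with NMN. NMN replicate 1 lay within the water range, and the adjusted p of Pck1 was 0.50 with it and 0.0003 without it (edgeR). Slc38a3 likewise had an adjusted p of 0.00073 without NMN replicate 1 and of 0.0056 without NMN replicate 3. These were the only 2 of the 6 fits with 1 library left out in which Slc38a3 passed, and its highest adjusted p was 0.23 (edgeR). Car4, a membrane carbonic anhydrase, lay at -0.87 on the log2 scale (SE 0.17, adjusted p = 0.11, edgeR, 7.7e-06 from DESeq2).

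Distal transport of sodium and potassium had 18 of 25 members above 0 with a median of 0.06. In edgeR 1 passed, DESeq2 called 2 higher, and 7 were higher and 0 lower at an unadjusted p under 0.05. Of 10 genes of water channels and the vasopressin response, Aqp4 was the only one to pass in edgeR, DESeq2 called 1 higher and 1 lower, and 2 were higher and 1 lower at an unadjusted p under 0.05. Aqp2, the vasopressin-regulated channel of the collecting duct, had a log2 fold change of 0.00 (SE 0.10). Cholesterol synthesis had 12 members above and 12 below 0, with 1 called in DESeq2 and 2 higher at an unadjusted p under 0.05. Ebp, a sterol isomerase, was its only called gene in edgeR, at 66.8, 67.5 and 68.1 CPM with water and 97.6, 142 and 151 CPM with NMN (log2 fold change 0.95, standard error 0.15, adjusted p = 0.0399, edgeR). The call on Ebp held in 1 of the 6 fits with a library left out, the one without NMN replicate 1.

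Genes of tubule injury had 17 of 21 members above 0 with a median of 0.20. Fgg alone passed in edgeR, DESeq2 called 3, all higher, and 4 were higher and 0 lower at an unadjusted p under 0.05. Clu, which encodes clusterin, had a log2 fold change of 0.35 (SE 0.09, adjusted p = 0.15, edgeR, 0.039 from DESeq2). Havcr1, an injury marker of the proximal tubule, was at 4.88, 1.44 and 0.721 CPM with water and 3.24, 3.24 and 18.1 CPM with NMN, so NMN replicate 3 alone lay above the water range (log2 fold change 1.80, standard error 1.13, adjusted p = 0.65, edgeR). Lcn2, another injury marker, had a log2 fold change of 0.54 (SE 0.58) that turned negative without NMN replicate 1. Clock genes had 10 members above and 10 below 0, and 0 passed in edgeR or DESeq2, with 1 at an unadjusted p under 0.05. Of genes of gluconeogenesis and the insulin response 0 of 24 passed in edgeR and 2 in DESeq2, with 6 higher at an unadjusted p under 0.05. Irs2, an adaptor of the insulin receptor, was at 23.6, 32.0 and 24.3 CPM with water and 68.4, 32.1 and 45.3 CPM with NMN (adjusted p = 0.41, edgeR).

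**Figure D4:**
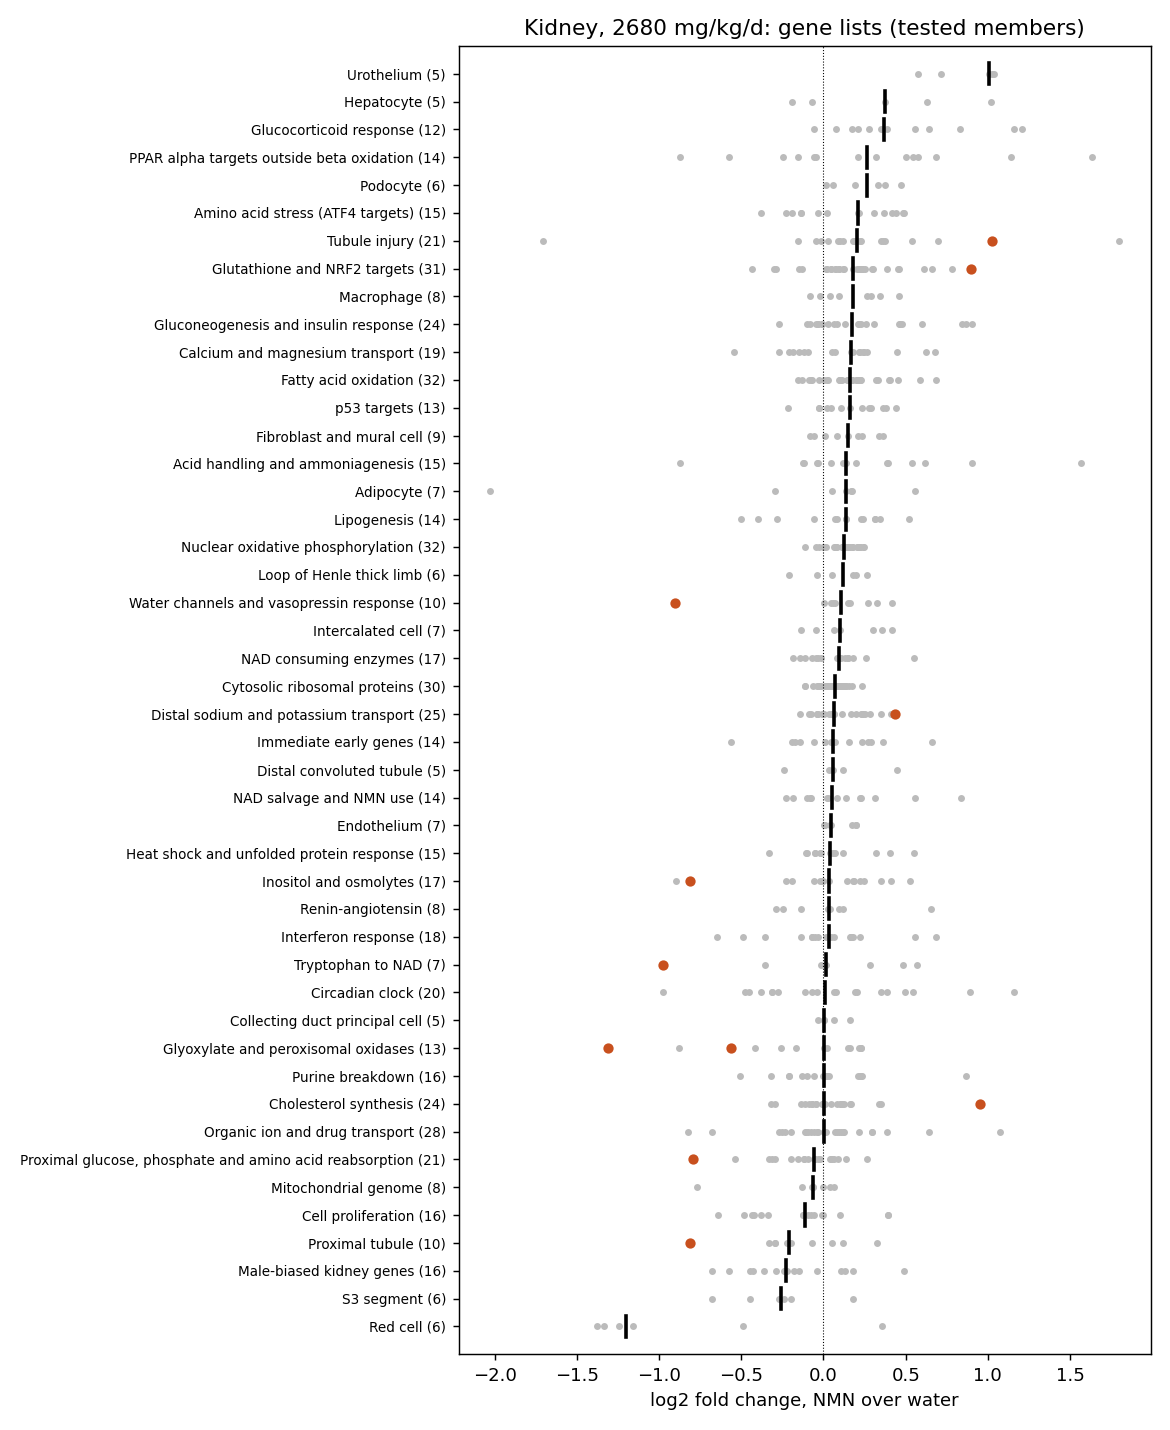
Log2 fold change of NMN over water for the tested members of each list with at least 5 of them (number in brackets), with a black bar at the median. Orange points are members past an adjusted p of 0.05 and grey points the others, and most lists hold none past the threshold.

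Markers of cell types were summed in each library. Of 10 markers of the proximal tubule, 7 lay below 0 and the median was -0.21. Miox passed in edgeR, DESeq2 called 2, both lower, and 4 were lower and 1 higher at an unadjusted p under 0.05. Their summed CPM was 18333, 19077 and 20296 with water and 14960, 18037 and 16097 with NMN, every NMN library below every water library, with Acsm2 as the most abundant member. In the S3 segment, the last part of the proximal tubule, 5 of 6 markers lay below 0, 0 passed in edgeR, 1 was lower in DESeq2 and 3 were lower at an unadjusted p under 0.05, and the summed CPM was 2259.6 ± 305 with NMN and 2745 ± 81.4 with water (SD, n = 3). Intercalated cells, which secrete acid or base, had a summed CPM of 440.5 ± 34.9 with NMN and 398 ± 1.51 with water (SD, n = 3), with 0 of 7 markers past the threshold in edgeR, 1 in DESeq2 and 2 at an unadjusted p under 0.05. Sums for the thick limb, the distal convoluted tubule, principal cells, podocytes, endothelium, fibroblasts and macrophages overlapped between the groups. The part of these shifts in the lower genes of the proximal tubule was not tested. The other markers of the proximal tubule did not pass in edgeR, with log2 fold changes from -0.33 for Slc34a1 to 0.33 for Aqp1, a water channel. Among them Lrp2, which encodes megalin, was at -0.29 with an adjusted p of 0.22 from edgeR and 0.0136 from DESeq2.

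Markers of tissue from around the kidney varied by library. Urothelium, the lining of the renal pelvis, had all 5 markers above 0, with 0 past the threshold in edgeR or DESeq2 or at an unadjusted p under 0.05. Its summed CPM was 56.0 in NMN replicate 1, against 12.6 to 22.3 in the other 5 libraries, and Upk1a was its most abundant gene. Red cell markers summed to 215, 61.1 and 168 CPM with water and to 95.9, 153 and 90.7 CPM with NMN, and Slc4a1, which intercalated cells also express, was the most abundant of them. Adipocyte markers summed to between 336 and 721 CPM with Fabp4 as the most abundant, and Lep, leptin, was at 1.47, 3.19 and 1.80 CPM with water and 0.294, 0.657 and 0.598 CPM with NMN (adjusted p = 0.055, edgeR, 0.0029 from DESeq2). Of the adrenal cortex list 1 of 6 markers had enough counts for a test, and Cyp11b1 was at 0 in all 6 libraries. Lymphocyte and neutrophil lists had 2 of 8 and 1 of 5 tested members, and Ly6g was at 0 throughout.

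The same treatment had been given at 1340 mg/kg/d to other mice with their own water group. That schedule differed in dose and in the number of gavages, and its kidney libraries also differed in make-up, with 8.92% to 10.6% of counts on the mitochondrial genome against 19.8% to 21.6%. Dose, number of gavages and the cause of this difference in make-up, which was not tested, cannot be told apart. There, 18 of 14972 genes passed (0.12%). Of the 18 genes that rose at 2680 mg/kg/d, 17 were tested and all 17 had a log2 fold change above 0 at 1340 mg/kg/d, with a median of 0.33, and Gsta2 passed there (log2 fold change 0.64, standard error 0.12, adjusted p = 0.039, edgeR). Of the 43 that fell, 42 were tested and 39 lay below 0, with a median of -0.29. Fam151a and Tfpi2 passed there as well. Over all 14547 genes tested in both schedules 57.9% had the same sign.

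An interaction term over 14 kidney libraries asked whether the schedules differed, and 1 of 15989 genes passed (0.00625%). This gene was Hao2, with a difference of -1.17 (SE 0.18, adjusted p = 0.0415, edgeR). At 1340 mg/kg/d Hao2 was at 254, 345, 316 and 309 CPM with water and at 202, 300.2, 318 and 295 CPM with NMN, and these groups overlapped. The difference missed the threshold without any 1 of the water replicates (adjusted p = 0.087, 0.23 and 0.22) or without NMN replicate 2 or 3 (0.16 and 0.11). DESeq2 called 10 genes. Folh1 and Aqp4 had a log2 fold change near 0 at 1340 mg/kg/d, -0.06 and -0.08, but their differences between schedules did not pass (adjusted p = 0.22 for Folh1 from edgeR).

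Of the genes tested in the liver at 2680 mg/kg/d, 883 of 12477 genes passed (7.08%). Of the genes that rose in the kidney, 12 were tested in the liver and 5 lay above 0, and of those that fell, 24 were tested and 13 lay below 0, beside 52.1% with the same sign among 11919 genes tested in both organs. In the liver 3 of the 12 and 6 of the 24 passed, beside the 7.08% of all genes tested there. Gsta2 was higher in both organs, Aqp4, Pbld2, Sugct, Syne4 and Prodh2 were lower in both, and Fam25c, Cyp2d9 and Acmsd had opposite signs. As an interaction over 12 libraries, the NMN effect differed between kidney and liver in 419 of 15811 genes (2.65%), 253 of them higher in the kidney than in the liver (1.6%) and 166 lower (1.05%). With 1 kidney library left out the count fell to between 118 (without water replicate 3) and 210 (without NMN replicate 1), and DESeq2 called 1234. Among the 61 kidney genes, 6 that rose and 5 that fell were among the 419.

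Acmsd went in opposite directions in the 2 organs. In the liver it was at 34.02, 30.6 and 24.3 CPM with water and at 131, 80.5 and 69.5 CPM with NMN, a log2 fold change of 1.67 (SE 0.24, adjusted p = 0.00513, edgeR). The difference between organs was -2.63 (SE 0.32, adjusted p = 0.00097, edgeR) and passed in each fit with 1 kidney library left out. Fam25c also went in opposite directions, with a log2 fold change of 2.24 in the kidney and -1.14 in the liver. Gsta2 rose in both, by 0.90 in the kidney and by 1.98 in the liver, and Prodh2 fell in both, by 0.56 and by 1.85. Aqp4 had a log2 fold change of -2.76 in the liver (SE 0.52). Its difference between organs, 1.86 (SE 0.48), did not pass (adjusted p = 0.054, edgeR).

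**Figure D5:**
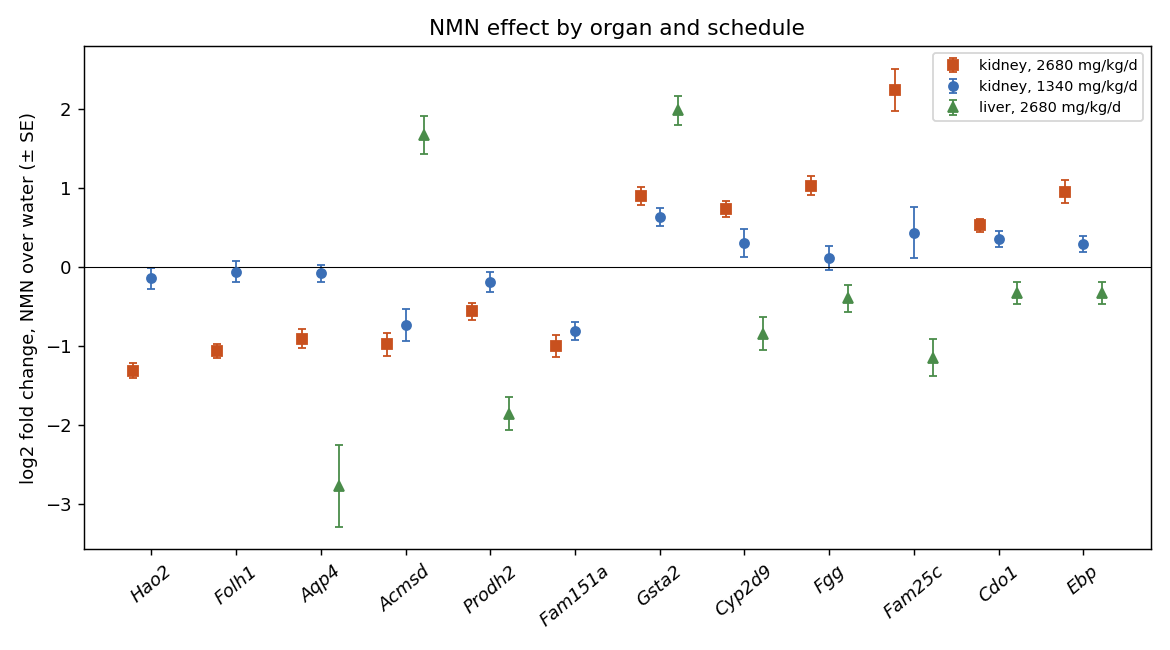
Log2 fold change of NMN over water with its standard error for 12 genes in the kidney at 2680 mg/kg/d (squares), the kidney at 1340 mg/kg/d (circles) and the liver at 2680 mg/kg/d (triangles). Genes without a triangle had too few counts for a test in the liver, and Acmsd lies below 0 in both kidney comparisons and above 0 in the liver.

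Of the 10 genes named for the difference between organs, only Acmsd and Fam25c passed in the kidney itself. Macrod1, a hydrolase of mono-ADP-ribose, was at 37.0 CPM with water and 36.1 CPM with NMN in the kidney, and at 68.2 ± 10.8 and 6.34 ± 0.864 CPM (SD, n = 3) in the liver. Slc23a1, a vitamin C transporter, was at 239 and 241 CPM in the kidney and at 56.6 and 17.9 CPM in the liver. Cyp4a31, a fatty acid hydroxylase with close paralogs, was at 367 and 380.2 CPM in the kidney and at 6.55 and 108 CPM in the liver. The adjusted p for NMN in the kidney was 0.93, 0.97 and 0.92 for these 3 genes (edgeR).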

How the data were processed

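Polyadenylated RNA was sequenced from whole kidney and liver. Reads were mapped with STAR and assigned to genes with HTSeq-count (strict intersection, strand ignored) by the authors, and they deposited whole-number counts without normalization. The genome build named in the study's methods could not be matched to a mouse build, so symbols came from GENCODE M21 (of 54446 identifiers, 53229 matched with their version, 1180 without and 37 not at all). Lines with no gene name were removed. Counts were filtered with filterByExpr, scaled by TMM and tested in edgeR 4.0.16 (R 4.3.3). Interactions used all kidney libraries or all 2680 mg/kg/d libraries. DESeq2 1.42.0 was an alternative. The edgeR and DESeq2 fits of NMN against water in the kidney and of both interactions were tested on simulated data. Other steps were not. The requirement was relaxed after edgeR recovered fewer of the changed genes in the kidney comparison than first asked. Standard errors are the log2 fold change over the square root of F. Genes were named by rule: the 12 of smallest p in each direction (adjusted p under 0.05, at least 1 CPM on average, groups apart), the 3 members of each list with the smallest p or past the threshold, fixed genes, and for interactions 5 in each direction. The text states the exceptions to this rule. Unnamed gene models were counted but not described. The members and lists were chosen with earlier results of these data known. Libraries carried no molecular identifiers, so depth covers counting error only. The machine used for each library is not given in the sources used here. One gene of the fixed lists is counted but not reported here by name.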

Additional observations from a re-analysis of the deposited data

Results flagged for a closer look

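The NMN effect differed between groups, by an interaction test in edgeR, in the following genes. Between the schedules Hao2 fell more in the kidney at 2680 mg/kg/d than at 1340 mg/kg/d, the log2 effects differing by -1.17 (adjusted p = 0.0415). Between organs at 2680 mg/kg/d, the 5 genes with the smallest p and a higher effect in the kidney were Macrod1 (difference 3.40), Slc23a1 (1.69), Tmem86b (2.03), Fam25c (3.40) and Gstm2 (1.63). Apart from Fam25c these had log2 fold changes between -0.24 and 0.10 in the kidney and were lower with NMN in the liver. The 5 with a lower effect in the kidney were Acmsd (difference -2.63), Glt1d1 (-1.76), Cyp4a31 (-3.97), Brpf3 (-1.62) and Fubp1 (-1.34), of which only Acmsd passed in the kidney. Among the other genes that passed in the kidney, the effect was also higher there for Fgg (difference 1.44), Cyp2d9 (1.59), Cdo1 (0.87), Ebp (1.29), Prodh2 (1.30) and Syne4 (2.67) and lower for Gsta2 (-1.07), Anxa13 (-3.11) and Chd3 (-0.81). Anxa13 had too few counts for a test in the liver alone. In the kidney it was at 3.72 ± 0.647 CPM with water and 1.03 ± 0.300 CPM with NMN (SD, n = 3). Syne4, Anxa13 and Chd3 fall outside the rule for named genes and were added after their values were seen. Sugct, Tfpi2 and Ly6f, named above for a call in another comparison or for a motif, also fall outside that rule. Prodh2 and Syne4 fell in both organs, and less in the kidney. Kidney and liver of one mouse may be among these libraries, and the labels do not say which, so the interaction treated them as separate.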

How the results depend on the processing

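The median of all tested genes was 0.0038 with TMM, 0.00095 with DESeq2's size factors and 0.00042 with the upper quartile. Each of these scalings centres the bulk of genes, so this median cannot show how far the calls depend on scaling. The count of genes for NMN against water, 61, was 236 with DESeq2, 514 with no filter on low counts, 35 with all 14 kidney libraries in one fit, 1688 at an unadjusted p and 3 at an adjusted p under 0.01 with a fold over 2 or under 0.5. The fit of all 14 kidney libraries kept 25 of the 61. Among the calls lost there were Azgp1, Pdxk, Cyp2d9, Slc34a3 and Acmsd, with adjusted p from 0.14 for Acmsd to 0.39 for Azgp1 (edgeR). With 1 library left out it ran from 3 to 191, and it was 196 without replicate 1 of both groups and 103 with the clock score (both added after seeing the data). The difference between schedules, 1 gene, became 10 with DESeq2, 106 with no filter, 0 with at least 10 counts in every library, 738 at an unadjusted p and 0 to 1 with a library left out. The difference between organs, 419 genes, became 1234 with DESeq2, 1307 with no filter, 3071 at an unadjusted p and 118 to 210 with a library left out. The replicate block gave 92, 2 and 401 genes in the 3 comparisons. The deviations of same-numbered libraries from their group means correlated at 0.043, -0.014 and 0.027. The labels do not pair these libraries, though replicate 1 of both groups stood apart in clock genes. The block turned the log2 fold change of Nmrk1 to -0.00158. The cause of these moves was not tested, and the fits with a library left out also held fewer samples. Every NMN library was deeper, and thinning to the smallest library gave 70 genes, of which 57 were among the 61.

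Signs turned only in named genes that did not pass, with 1 library left out over these ranges: Fgb from -0.057 to 1.41, Serpina1a from -0.033 to 0.98, Lcn2 from -0.17 to 0.99, Nampt from -0.036 to 0.19, Adipoq from -0.041 to 0.35, Hsd11b2 from -0.017 to 0.16, Slc12a3 from -0.066 to 0.095, Fxyd4 from -0.11 to 0.075, Arntl from -1.31 to 1.38, Dbp from -0.34 to 0.62, Nmrk1 from -0.10 to 0.18 and Aqp2 from -0.070 to 0.084. Without replicate 1 of both groups Fxyd4 was at 0.17, Arntl at 0.38 and Aqp2 at -0.074, and with the clock score Arntl was at 0.31 and Nmrk1 at -0.034. Aqp2 was at -1.001e-05 with DESeq2, -0.000685 with its size factors, -0.000506 with the upper quartile and -0.00306 with all 14 libraries.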
